A study of Sus scrofa with 2 samples.

Results

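The cytosolic ribosomal protein genes were followed through nuclei of the pig kidney cortex. These genes encode the proteins of the small (40S, RPS genes) and the large (60S, RPL genes) subunit of the ribosome outside the mitochondria. They were chosen by name alone, as the genes whose symbol in the deposited gene list is RPL or RPS followed by a number and, where present, a letter A, X, Y or L and a further digit. Of 31908 genes in the files, 55 fitted this pattern and 54 of them had at least 10 UMIs (unique molecular identifiers, each standing for 1 counted RNA molecule). The remaining gene, RPL10L, had no UMI. The 54 genes comprised 20 RPS and 34 RPL genes and are called the ribosomal protein genes below.

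The study examined mechanical signalling in the kidney and perfused pig kidneys outside the body for this purpose. Slaughterhouse kidneys were flushed with heparinized saline and kept at 4 °C for about 2 h, and perfusion began after that. The unperfused library came from cortex sampled before perfusion. The perfused library came from cortex taken 120 min after the start of normothermic perfusion at 37 °C and 100 mmHg. The perfusate was a balanced salt solution to which neither red blood cells nor albumin were added. Nuclei were prepared from frozen tissue for droplet sequencing of 3' ends, and neither the labels nor the methods say whether both pieces came from the same animal. The labels name the tissue and the perfusion state but no strain, age, genotype or further treatment, and all values describe nuclei, not whole cells.

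Each condition is 1 library, so that no difference between the conditions could be tested. All intervals are exact 95% intervals of counting and leave out the variation between animals and preparations. Shares are percentages of all UMIs, and the level of a single gene is given in CPM, its UMIs scaled to the same total in every sum of nuclei. Ratios are given as log2 of the perfused over the unperfused share, and a gene was counted as higher or lower when it differed by at least 1.5-fold among genes with at least 20 UMIs in the nuclei compared.

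As background, ribosomal proteins are made in the cytoplasm, carried into the nucleolus, joined there to ribosomal RNA and exported again as subunits. Most of their mRNAs start with a pyrimidine tract, the 5' terminal oligopyrimidine motif, through which mTORC1 and LARP1 control how strongly they are translated. The genes are short, are expressed in every cell and have many processed pseudogenes, so reads may be split between near-identical copies, and no cell type of the kidney lacks them as a measure of free RNA. The counts are 3' end tags that include intronic reads, and levels of different genes were therefore not compared per length.

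The files held 7179 barcodes and 34415254 UMIs for the unperfused and 6205 barcodes and 35525592 UMIs for the perfused library. After filtering, 6389 and 5421 nuclei were left, with a median of 3755 and 4383 UMIs, and 8 of the kept barcodes occurred in both libraries. Clustering without the ribosomal protein genes gave 20 clusters. By fixed markers, all but 3 of them were assigned to 13 classes, each name meaning nuclei like that type: PT and injured PT for the proximal tubule, LOH for the loop of Henle, DCT and CNT for the distal convoluted and the connecting tubule, PC for principal cells, IC-A and IC-B for both types of intercalated cells, PODO for podocytes, EC for endothelium, STROMA, IMM for immune cells, and cycling cells. Clusters 11, 14 and 17 were not named. The IMM class was a single cluster that also counted 8 stromal markers beside 10 immune ones, and its share and the log2 ratio of its sum are also given below for its subclusters, whereas its other values are for the whole cluster.

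The ribosomal protein genes held 0.324% of the UMIs (0.322 to 0.326) before perfusion and 0.494% (0.491 to 0.496) after it. This was 13.5 UMIs per nucleus before and 24.7 after perfusion. The log2 ratio was 0.61 (0.59 to 0.62), a 1.52-fold higher share. The middle of the distribution did not follow, since the median nucleus had a share of 0.276% before and of 0.27% after perfusion. The upper quartile went from 0.427% to 0.649% and the lower quartile from 0.194% to 0.168%. Nuclei with a share above 1% numbered 363 (5.68%) before and 1047 (19.3%) after perfusion. The perfused library was therefore higher in the upper part of the distribution of nuclei and lower at the lower quartile. Nearly all nuclei of both libraries (99.9% and 99.8%) had at least 1 UMI of a ribosomal protein gene.

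The share differed widely between classes. In the unperfused library it was highest in IMM (1.62%), STROMA (0.576%) and EC (0.501%), and lowest in DCT (0.192%) and CNT (0.201%). In the perfused library it was again highest in IMM (2.37%) and STROMA (1.12%), with the cycling class at 0.89% and EC at 0.475%, and lowest in DCT (0.151%), IC-B (0.161%) and PC (0.165%). PT nuclei, the most numerous tubule nuclei, had 0.246% and 0.235%. The order of the 16 classes and unnamed clusters was alike in both libraries (Spearman rho 0.84, as a description, with points that share the clustering). Classes with fewer UMIs per nucleus had larger shares, with a rho of -0.6 between share and median UMIs before and of -0.76 after perfusion. EC and STROMA nuclei had median UMIs of 1881 and 2329 in the unperfused library against 5291 in PT nuclei.

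**Figure D1:**
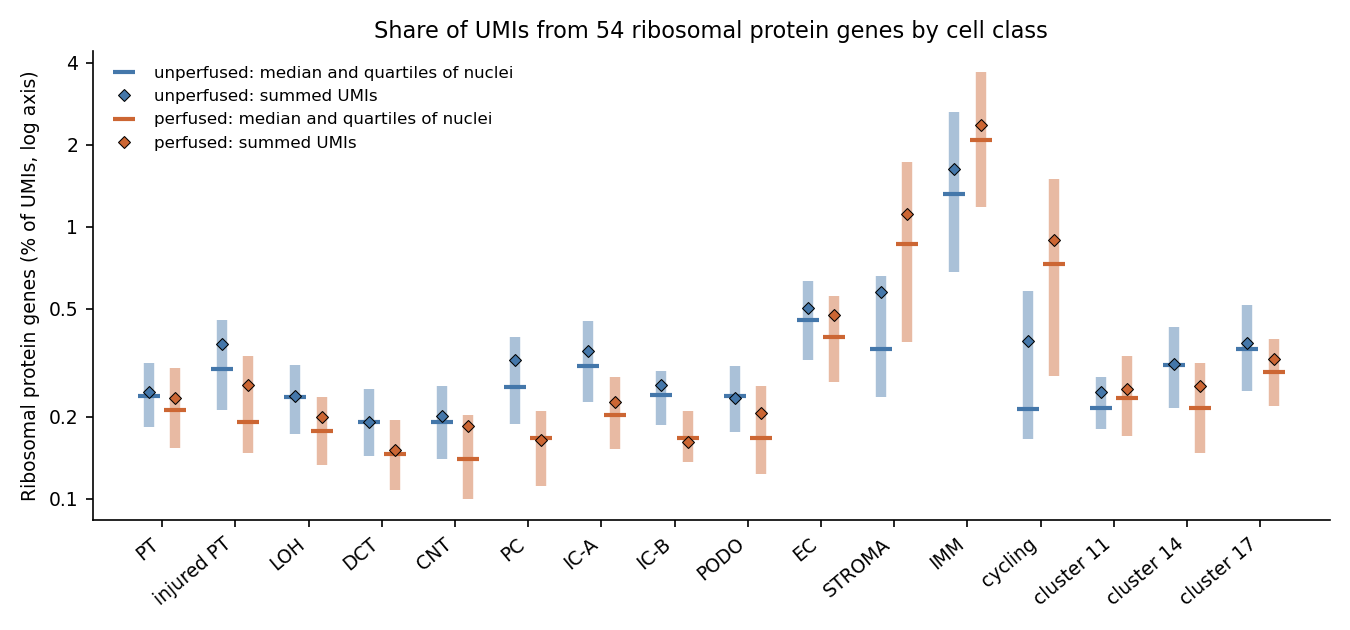
Share of UMIs from the ribosomal protein genes (y axis, percent of UMIs, log axis) by cell class (x axis) in the unperfused (blue) and perfused (orange) library. Dashes and bars give the median and quartiles over nuclei and diamonds the share in the summed UMIs, which went from 0.576% to 1.12% in STROMA and from 0.501% to 0.475% in EC.

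Between the libraries, the summed ribosomal protein genes were higher in the perfused library in 4 of the 16 classes and clusters, with an interval above 0 in 3 of them, and lower with an interval below 0 in the other 12. The 3 were the cycling class (log2 ratio 1.23, from 38 and 20 nuclei), STROMA (0.95, 0.91 to 0.996) and IMM (0.55, 0.52 to 0.58). The largest differences in the opposite direction were in PC (-0.97), IC-B (-0.70), IC-A (-0.63) and injured PT (-0.50). The difference between the classes was not tested. Mitochondrially encoded genes differed in a similar order over the 16 classes and clusters (Spearman rho 0.93 between the log2 ratios of both groups, with points that share nuclei and totals). Their log2 ratio was 2.04 in the cycling class, 1.997 in STROMA and 1.18 in IMM, against -1.83 in PC, -1.55 in IC-B and -1.36 in IC-A. The order was similar but the sign was not: in 8 of 16, among them PT (1.02), injured PT (0.41), EC (0.49) and CNT (0.45), the mitochondrial genes were above 0 and the ribosomal protein genes below it. The part of the mitochondrial RNA or of the RNA outside nuclei in these differences was not tested.

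**Figure D2:**
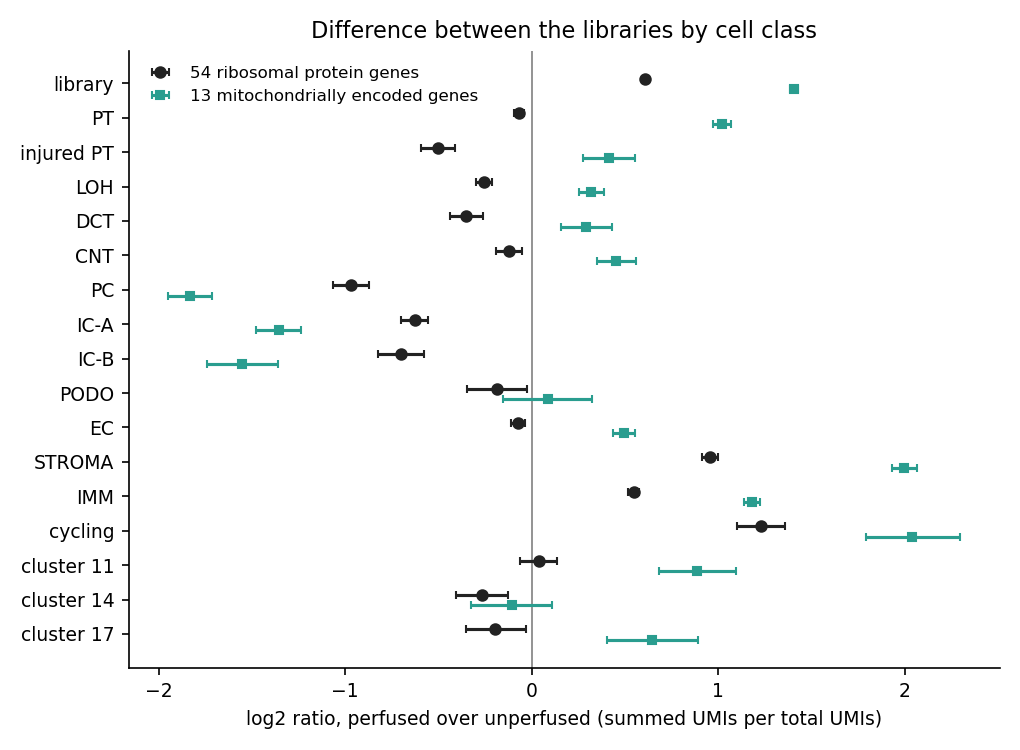
log2 ratio of the perfused over the unperfused share (x axis) of the summed ribosomal protein genes (black circles) and of the 13 mitochondrially encoded genes (green squares) in the whole libraries and each class (y axis), with 95% counting intervals. The ribosomal protein genes were at 0.95 in STROMA and at -0.97 in PC, where the mitochondrial genes were at 1.997 and -1.83.

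The libraries also differed in their makeup of classes. IMM nuclei were 4.49% of unperfused and 16.3% of perfused nuclei, and held 12% and 45% of the UMIs of ribosomal protein genes. Much of this came from a part of IMM that could not be named as immune at the finer resolution of 1.0, described below. That part held 5930 of the 10378 unperfused and 40920 of the 60219 perfused UMIs of ribosomal protein genes in IMM. The part led by immune genes held 3357 and 16225. Without IMM the shares of both libraries were 0.292% and 0.299%, a log2 ratio of 0.03. With the class shares held at those of the unperfused library, the perfused levels gave 0.336% and a log2 ratio of 0.05. With the unperfused levels and the perfused class shares, the value was 0.42% and the log2 ratio 0.37. In the 8 tubule classes together the share was 0.25% before and 0.212% after perfusion (log2 ratio -0.24).

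Single genes followed their sum in most classes. In the whole library 51 of 54 genes were above 0 and 30 were at least 1.5-fold higher. Of all 19633 genes with at least 20 UMIs, 40.3% were above 0 and 6.55% at least 1.5-fold higher. None was at least 1.5-fold lower, against 18.2% of all genes. The median log2 ratio of the 54 genes was 0.61, and that of all genes was -0.08. Scaling the libraries by the TMM factors of edgeR would raise every log2 ratio by 0.10 in the whole library, by 0.09 in PT, by 0.13 in EC and by 0.21 in IMM.

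RPS20, a protein of the head of the small subunit, had the most UMIs, with 125 CPM before and 247 CPM after perfusion (log2 ratio 0.98). Together the 12 genes with the most UMIs held 38.1% of the UMIs of ribosomal protein genes, and RPS20 alone 4.55%. RPS2, at the entry of the mRNA channel, went from 110 to 178 CPM. RPS15, near the decoding site, stood at 126 and 150.1 CPM. RPS27A, made as a fusion with ubiquitin, stood at 111 and 148 CPM. All 4 of these small subunit genes had a higher CPM in the perfused library.

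RPL11, which with RPL5 and 5S RNA can bind MDM2, stood at 119 and 154 CPM. RPL10, which is added late to the large subunit near its catalytic centre, went from 74.1 to 151 CPM (log2 ratio 1.02). RPL27A stood at 91.5 and 152 CPM, RPL34 at 104 and 134, and RPL37 at 83.2 and 145. RPS28 went from 77 to 142 CPM. RPL10, RPS20 and RPL28 (0.97) were among the genes with the highest log2 ratios in the whole library. At the other end were RPL7L1 (-0.43), RPL3L (-0.21), RPL26L1 (-0.13), RPL31 (0.12) and RPS18 (0.23). The first 3 of these are named as paralogues of other ribosomal protein genes, and the intervals of RPL3L and RPL26L1 included 0.

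In STROMA, the class of fibroblast-, pericyte- and smooth muscle-like nuclei, all 53 ribosomal protein genes with at least 20 UMIs were above 0. Of all genes 46.6% were above 0. Of the 53, 44 were at least 1.5-fold higher and none was lower, against 13.1% of all 11284 genes higher and 15.7% lower. The median log2 ratio of the 53 genes was 0.96, where that of all genes was -0.04. RPL28, among the highest, went from 95.3 CPM in 366 unperfused nuclei to 263 in 493 perfused nuclei (log2 ratio 1.46, 1.15 to 1.78). RPS13 followed with 39.2 and 102 CPM (1.38), RPL3 with 71.2 and 168 (1.24) and RPS2 with 174 and 402 (1.21). Among genes with at least 100 UMIs in 1 library RPL31 differed least, with 98 and 109 CPM (0.15) and an interval from -0.20 to 0.51. RPS18 (0.47), RPL27 (0.50), RPL23 (0.56) and RPS15 (0.57) came next to it and stayed under 1.5-fold. The count and the size depended on which nuclei were taken. At the coarser cluster resolution of 0.3 the log2 ratio of the sum was 0.39 with 16 genes at least 1.5-fold higher. Without nuclei that held a UMI of another lineage it was 0.63 with 28 genes, from only 88 unperfused and 126 perfused nuclei. The shares over all genes were not counted for these choices. The 2 clusters of the class had log2 ratios of 1.28 (259 and 357 nuclei) and 0.39 (107 and 136 nuclei). The second had an unperfused share of 1.099%, the same as the highest among the alternatives for STROMA. At resolution 0.3 the class thus matched this second cluster alone, and its 0.39 is not a separate value. Free RNA was scaled by LRP2, CUBN, SLC12A1 and UMOD against all kept nuclei of the library. The estimate was 29.4% of the UMIs of unperfused and 17.1% of those of perfused STROMA nuclei. The part of free RNA in the difference was not tested.

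The difference in STROMA was uneven between nuclei. The lower quartile of the share per nucleus was 0.237% before and 0.377% after perfusion, the median 0.356% and 0.867%, and the upper quartile 0.661% and 1.73%. Nuclei above 1% were 16.1% and 45% of the class. Thinned to 1000 UMIs each, with 21 and 58 shallower nuclei left out, the mean share was 0.627% and 1.10%. Median UMIs per nucleus were 2329 and 2295, while the mitochondrial share went from 0.187% to 0.748%. Within the class, the share of ribosomal protein genes was higher in nuclei with a higher mitochondrial share (Spearman rho 0.53 over unperfused and 0.90 over perfused nuclei, which share their library and totals).

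When STROMA nuclei were compared within bins of equal mitochondrial share, the direction turned. Among nuclei with less than 0.05% mitochondrial UMIs, 65 unperfused nuclei had a share of 0.271% and 37 perfused nuclei one of 0.225%. Between 0.05% and 0.2% the shares were 0.354% and 0.274%, and between 0.2% and 0.5% they were 0.68% and 0.599%. Between 0.5% and 1% they were 1.99% and 1.23%. The ribosomal protein genes were thus lower in the perfused library in the 4 bins with at least 20 nuclei of each library, with a median log2 ratio of -0.32, where all nuclei of the class gave 0.95. These bins leave out the nuclei above 1%, which were 10 unperfused nuclei with a share of 3.29% and 139 of the 493 perfused nuclei with a share of 2.36%. This split was made after the data were seen, and both shares are parts of the same total.

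The bins of other classes were mostly lower in the perfused library as well. In PT, LOH, PC, IC-A and IC-B every bin with at least 20 nuclei of each library was lower in the perfused library, with median log2 ratios of -0.32, -0.34, -0.60, -0.51 and -0.50. Bins with fewer nuclei were left out and held 66 of the unperfused and 12 of the perfused PC nuclei, and 2 and 58 PT nuclei. In EC 3 of 4 bins were lower (median -0.20) and in IMM 3 of 4 (median -0.28). The EC bin between 0.5% and 1% was at 0.14, with an interval that included 0. The intervals of the EC (-0.06) and LOH (-0.14) bins between 0.2% and 0.5%, counted as lower, also included 0. The IMM bin above 1% was higher, with shares of 3.16% and 3.60% (log2 ratio 0.19). It held 86 of 287 unperfused and 557 of 884 perfused IMM nuclei, and the median weighs each bin equally. Over all nuclei of the libraries, 4 of 5 bins were lower. The exception was the bin above 1% mitochondrial UMIs, where 135 unperfused nuclei had a share of 2.06% and 749 perfused nuclei one of 3.13%.

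The IMM class had 287 unperfused and 884 perfused nuclei with a median of 1457 and 1742 UMIs. Of its 53 genes with at least 20 UMIs, 52 were above 0, against 44.3% of all genes. Of the 53, 22 were at least 1.5-fold higher and 1 was lower, against 11% of all genes higher and 15.7% lower. Their median log2 ratio was 0.54, where that of all genes was -0.07. With TMM factors or without a mitochondrial limit, 41 and 38 genes were higher. TMM factors raise the log2 ratio of every gene in IMM by 0.21, and the shares over all genes were not counted under these settings. RPL10 went from 471 to 850.3 CPM (0.85) and RPL26 stood at 366 and 394 (0.11). These genes, and those named below in IC-A, LOH and PT, were picked with their values in view. The gene that was lower was RPL26L1, with 16 and 38 UMIs and an interval that included 0.

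At the finer resolution of 1.0 the IMM class fell into 3 clusters of at least 20 nuclei. The first, with 112 unperfused and 470 perfused nuclei, could not be named: CST3, DCN, COL1A1 and mitochondrial genes led it, it counted 9 immune and 9 stromal markers, and its median was 1328 UMIs. Ribosomal protein genes were 2.99% of its UMIs before and 4.09% after perfusion, beside 1.44% and 3.13% of mitochondrial UMIs. The second, led by RUNX1, ARHGAP15 and PTPRC, had 143 and 335 nuclei and shares of 0.884% and 1.23%. It counted 10 immune and 8 stromal markers, the same numbers as the whole class. The log2 ratio was 0.45 in the first and 0.47 in the second. The third, endothelium-like, had 31 and 79 nuclei and shares of 1.81% and 1.42% (log2 ratio -0.34). The shares in the immune-led cluster were above the 0.501% and 0.475% of EC.

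In the collecting duct the ribosomal protein genes were lower in the perfused library. PC, the water-reabsorbing cells marked by AQP2, had 0.323% in 176 unperfused and 0.165% in 151 perfused nuclei. Of 51 genes with at least 20 UMIs, 41 were at least 1.5-fold lower and none higher, against 22.2% of all genes lower. IC-A, the acid-secreting cells, had 0.35% in 299 and 0.227% in 134 nuclei, with 34 of 52 genes lower against 17.7% of all genes. IC-B, the bicarbonate-secreting cells, had 0.262% in 112 and 0.161% in 60 nuclei, with 30 of 49 genes lower against 17%. Median shares per nucleus were 0.257% and 0.167% in PC, 0.307% and 0.203% in IC-A, and 0.24% and 0.167% in IC-B, so that the middle nucleus moved together with the sum. Mitochondrial shares were 0.339% and 0.0953% in PC, 0.178% and 0.0696% in IC-A, and 0.173% and 0.0591% in IC-B. In IC-A, RPL23 went from 88.1 to 30.8 CPM and RPS27A from 138 to 58.7, whereas RPS20 stood at 106 and 99.4.

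LOH nuclei had 0.239% before and 0.2% after perfusion (log2 ratio -0.26, with a mitochondrial log2 ratio of 0.32). Of its 54 genes 6 were at least 1.5-fold lower and none higher, against 15.3% of all genes lower and 3.82% higher. RPS23 showed the largest difference among genes with at least 100 UMIs in 1 library, with 51 and 26.8 CPM (-0.93). The log2 ratio of the sum was -0.35 in DCT, -0.12 in CNT and -0.19 in PODO nuclei (89 and 30 nuclei).

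In the sums of PT and EC the libraries differed little. PT had a log2 ratio of -0.07 (-0.10 to -0.04), with 1 of 54 genes at least 1.5-fold lower and none higher, against 17.6% of all genes lower and 3.64% higher. Its clusters went opposite ways, from 0.23% to 0.199% in the larger (-0.21, 1082 and 739 nuclei) and from 0.281% to 0.315% in the smaller (0.17, 697 and 465 nuclei). The gene that was lower in PT was RPS3A, with 41.1 and 26.8 CPM (-0.61), and RPS20 was highest with 67.7 and 89.4 (0.40). EC had a log2 ratio of -0.08 (-0.11 to -0.04), and none of its 53 genes passed 1.5-fold in either direction, against 4.18% of all genes higher and 17.1% lower. The direction of both sums turned with the scaling: with TMM factors PT was at 0.02 and EC at 0.05. It also turned in PT with the mean over nuclei (0.070) and in EC at cluster resolutions of 0.3 (0.082) and 1.0 (0.098). Among EC genes with at least 100 UMIs in 1 library the highest included RPS20 (0.32, from 182 to 227 CPM), RPL38 (0.32) and RPL27A (0.19), and RPS4X, with 88 and 95 UMIs, was at 0.50. The lowest were RPL3 (-0.44, from 71.4 to 52.7 CPM), RPL23 (-0.43), RPS18 (-0.35), RPL31 (-0.34) and RPL11 (-0.31). RPL3 was thus among the lowest genes in EC and among the highest in STROMA. In the share per nucleus, EC went from a median of 0.454% to 0.393% and PT from 0.239% to 0.212%.

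**Figure D3:**
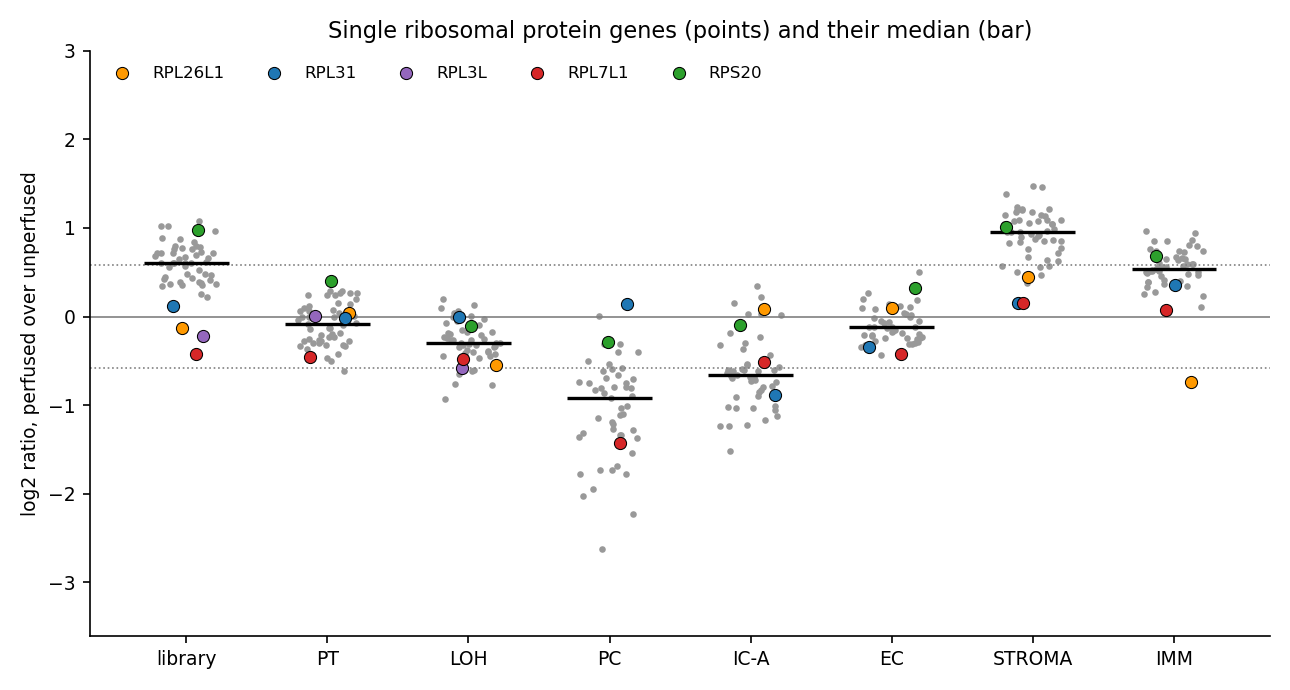
log2 ratio of the perfused over the unperfused library (y axis) of each ribosomal protein gene with at least 20 UMIs (points) in the whole library and 7 classes (x axis), with the median as a bar and 1.5-fold as dotted lines. All points lie above 0 in STROMA, 41 of 51 lie at or below the lower dotted line in PC, and none passes either line in EC. RPS20, RPL31 and 3 paralogues are in colour.

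Both subunits are described by their shares and median log2 ratios. The 20 small subunit genes held 0.131% of all UMIs before and 0.207% after perfusion, and the 34 large subunit genes 0.194% and 0.287%. Their median log2 ratios were 0.68 and 0.60 in the whole library. In STROMA the medians were 0.95 for 20 small and 0.96 for 33 large subunit genes, in IMM 0.57 and 0.52, in EC -0.01 and -0.16, and in PT 0.00 and -0.09. The medians lay further apart in IC-B (-0.52 and -0.85), the cycling class (1.42 and 1.16) and DCT (-0.22 and -0.43). They had opposite signs in cluster 11 (0.23 and -0.14). In PC the small subunit genes had the lower median (-1.05 and -0.86). RPS6, the substrate of S6 kinase in the small subunit, stood at 34.6 and 46.3 CPM in the whole library. RPL5, the partner of RPL11, stood at 65.1 and 85.3.

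Paralogues differed from the other genes in level or direction. RPL3L, known from striated muscle, had 332 UMIs, of which 224 (67.5%) lay in PT nuclei, at 12.1 CPM before and 12.2 after perfusion. RPL3, its widely expressed counterpart, had 2771 UMIs and stood at 24.5 and 29.5 CPM in PT. In EC, RPL3L had 2 and 3 UMIs where RPL3 had 190 and 107. The annotated span of RPL3L shares 744 bases with NDUFB10, a gene of the respiratory chain, so its counts are uncertain. RPL7L1, the counterpart of RPL7, went from 24.8 to 18.5 CPM in the whole library (log2 ratio -0.43, -0.60 to -0.26), whereas RPL7 stood at 55.5 and 84.6. In PT, RPL7L1 was at 24.1 and 17.5 CPM (-0.46), and in STROMA at 22.3 and 24.7 (0.15). RPL26L1 stood at 10.5 and 9.59 CPM and RPL26 at 59.2 and 82.5. RPL22L1 was the only one of the 4 paralogues with a positive log2 ratio in the whole library (0.38, from 7.49 to 9.78 CPM, beside 0.45 for RPL22). RPS4X, the X-linked gene, stood at 25.8 and 47.2 CPM.

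The genes also shared their order across classes. Over the 32 sums of class and library, the median correlation of a gene with the sum of the others was 0.95 (Pearson, on log2 CPM), and 49 of 54 genes were at or above 0.89. The 5 below were RPL3L (0.02), RPL7L1 (0.28), RPL26L1 (0.30), RPL31 (0.39) and RPL22L1 (0.54). RPL31 was thus the gene not named as a paralogue that departed most. The points share nuclei and library totals, and the correlations are given as a description. RPL3L, RPL22L1 and RPL26L1 had only 332, 465 and 540 UMIs over all 32 sums. The part of counting error in their low correlations was not tested.

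RPL31, a protein at the exit of the peptide tunnel, varied most as a part of the ribosomal protein gene UMIs. It made up 12.7% of them in cluster 11 of the unperfused and 10.7% in that of the perfused library, but 0.954% and 0.839% in IMM, a 13-fold range over the 16 classes and clusters. In PT it made up 6.94% and 7.2%, in LOH 4.41% and 5.25%, and in CNT 1.35% and 0.952%. As a level it stood at 171 and 169 CPM in PT, at 106 and 105 in LOH, and at 27.2 and 17.6 in CNT. Its level in IMM, 155 and 199 CPM, was near that in PT, while the median log2 ratio of IMM over PT across the 54 genes was 2.78 before and 3.38 after perfusion. Its annotated neighbours lie 743 and 3417 bases away. TBC1D8, the nearer of them and looked at after the values of RPL31 were seen, stood at 174 and 168 CPM in PT and at 206 and 254 in EC, where RPL31 stood at 88.7 and 69.9. NPAS2, on the other side, was at 15.5 CPM or less in each class and library except cluster 17 of the unperfused library, where it reached 22.3.

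**Figure D4:**
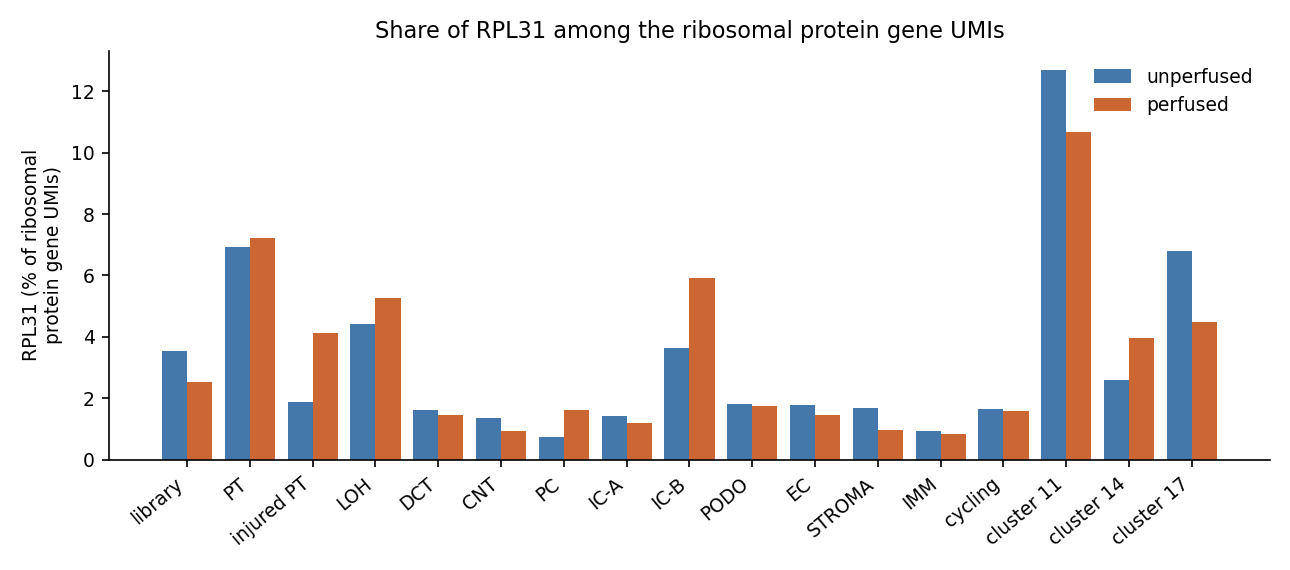
Share of RPL31 among the UMIs of the ribosomal protein genes (y axis, percent) by cell class (x axis) in the unperfused (blue) and perfused (orange) library. The bars reach 12.7% and 10.7% in cluster 11 and stay at 0.954% and 0.839% in IMM.

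By the mean over both libraries, the other genes with a large range over classes were RPL7L1 (7.6-fold, highest in DCT), RPL26L1 (7.18-fold, highest in PODO), RPL15 (3.02-fold, highest in cluster 14) and RPL4 (2.95-fold, highest in PODO). The order was not the same in each library: RPL7L1 made up 0.921% and 1.10% in DCT but 1.20% and 0.762% in CNT. The value of RPL26L1 in PODO rests on 9 and 3 UMIs. RPL15 made up 2.23% and 1.68% of the ribosomal protein gene UMIs in cluster 14 and 0.36% and 0.935% in cluster 11. All ribosomal protein genes together had 1112 and 3209 UMIs in cluster 11, so these parts also rest on few UMIs. RPL4, which lines the peptide tunnel, made up 0.706% and 1.74% in PODO, from 7 and 8 UMIs, and 0.599% and 0.23% in cluster 17. Cluster 11, led by POU2F3 and SLC5A8, had 72 unperfused and 175 perfused nuclei and a log2 ratio of the sum of 0.04.

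Most ribosomal protein genes are short. By symbol, 53 genes had 1 entry in RefSeq (Sscrofa11.1), with a median span of 4057 bases, where 12149 matched genes with at least 20 UMIs had one of 33172 bases. Among these 53 genes, a longer span went with a smaller excess in IMM over PT (Spearman rho -0.45 and -0.43) and with a lower log2 ratio in the whole library (rho -0.29), across genes that are not independent. The spans of 10 genes overlapped another gene, which leaves part of their counts uncertain. The longest overlap was that of RPS2 with RNF151 (3132 bases), followed by RPS25 with CCDC84 (1523 bases).

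Ribosomal protein genes that the rule did not take in gave a further view, on a list drawn up after the data were seen. These were 9 rows without a symbol that a table of gene names calls ribosomal proteins, and RPLP0, RPLP1, RPLP2, RPSA and RPL36AL, 14 genes in all. In STROMA 13 of 14 were above 0 and 10 were at least 1.5-fold higher, against 13.1% of all genes. The median log2 ratio was 0.82 there and -0.13 in EC. Summed, the 14 genes held 0.132% of the UMIs before and 0.157% after perfusion. Their log2 ratio was 0.25 in the whole library, against 0.61 for the genes of the rule. It was also lower in PT (-0.31 against -0.07), LOH (-0.40 against -0.26) and STROMA (0.81 against 0.95). It was higher in PC (-0.88 against -0.97), IC-A, IC-B and PODO. The library values above thus describe the genes of the rule, not all ribosomal protein genes. The stalk proteins RPLP0 and RPLP2 had log2 ratios of 1.55 and 1.76 in STROMA. RPL7A, the row with the most UMIs of all ribosomal protein genes, went the other way in the whole library, from 441 to 338 CPM (-0.38), and in PT from 208 to 117 (-0.82). In STROMA it stood at 247 and 310 CPM (0.33). RPS27L, a paralogue of RPS27 that p53 can induce, was also lower in the whole library (-0.46, from 48.3 to 35.2 CPM).

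Other lists of genes are given for comparison, by their counts and medians. Over all genes 13.1% were higher and 15.7% lower in STROMA, 11% and 15.7% in IMM, 3.64% and 17.6% in PT, and 4.18% and 17.1% in EC, and 22.2% were lower in PC. Of 21 other genes with 5' terminal oligopyrimidine mRNAs, 13 were at least 1.5-fold higher in STROMA and none lower (median log2 ratio 0.70), 7 were higher in IMM, 9 were lower in PC, and 2 were lower and none higher in EC. In the whole library 9 of 21 were higher, against 6.55% of all genes. The elongation factor EEF1A1 went from 311 to 687 CPM in STROMA (1.15) and TPT1 from 275 to 629 (1.19). RPLP1 went from 302 to 565 (0.90). RPLP0, RPLP1, RPLP2 and RPSA are in this list and in that of the preceding paragraph, so the lists overlap. Each of them was at least 1.5-fold higher in STROMA, with RPSA at 1.13.

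The factors that build ribosomes had medians nearer to 0 in STROMA and IMM. Of 33 genes with at least 20 UMIs of ribosome biogenesis and RNA polymerase I, 4 were at least 1.5-fold higher and 5 lower in STROMA (median -0.14), near the shares over all genes, and 4 of 32 were higher and 1 lower in IMM. UTP20 stood at 52.5 and 47.5 CPM in STROMA, NOP58 at 93.5 and 74.1, and POLR1D, a subunit of RNA polymerase I and III, at 45.4 and 69.1 (0.60). Of 20 such genes of mTORC1 and translation control, none was higher and 3 were lower in STROMA (median -0.09). LARP1 stood at 144 and 127 CPM there, LARP4 at 167 and 175, and RPTOR at 158 and 126 (-0.32).

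Mitochondrial ribosomal proteins, which are encoded in the nucleus, gave a median of 0.17 in STROMA, with 13 of 63 genes higher and 4 lower. MRPS9 stood at 96.2 and 80.5 CPM, MRPS27 at 81 and 51.9 and MRPS28 at 52.5 and 33.6. Their summed share in STROMA was 0.154% and 0.157%. Nuclear encoded genes of oxidative phosphorylation lay between, with 30 of 72 higher and 1 lower in STROMA (median 0.44). SDHB stood at 73.9 and 71.6 CPM, UQCRC2 at 101 and 81.1, and NDUFA4 went from 97.1 to 143 (0.56).

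Other abundant mRNAs of the cytoplasm, drawn up as a list without ribosomal genes, had a median in STROMA near that of the ribosomal protein genes. In STROMA 27 of 37 were at least 1.5-fold higher and none lower (median 0.82), in IMM 12 of 37 were higher, in PC 19 of 31 were lower and 2 higher, and in PT 8 of 37 were lower and none higher. B2M went from 539 to 936 CPM in STROMA (0.80) and from 198 to 115 in PT (-0.78). FTL stood at 418 and 718 in STROMA (0.78) and at 427 and 366 in PT (-0.22), and GPX3, a plasma peroxidase made by PT, at 437 and 590.4 in STROMA (0.43). Of the mitochondrially encoded genes 12 of 13 were higher in STROMA, among them COX3 (2.31), COX2 (2.14) and COX1 (1.65). In the red cell list HBB stood at 6.29 and 19.8 CPM in the whole library (1.65), SLC4A1, which IC-A nuclei also express, at 15.2 and 7.93, and ALAS2 at 25 and 24 UMIs. The list of RNAs kept in the nucleus had no gene with a UMI under its symbols.

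**Figure D5:**
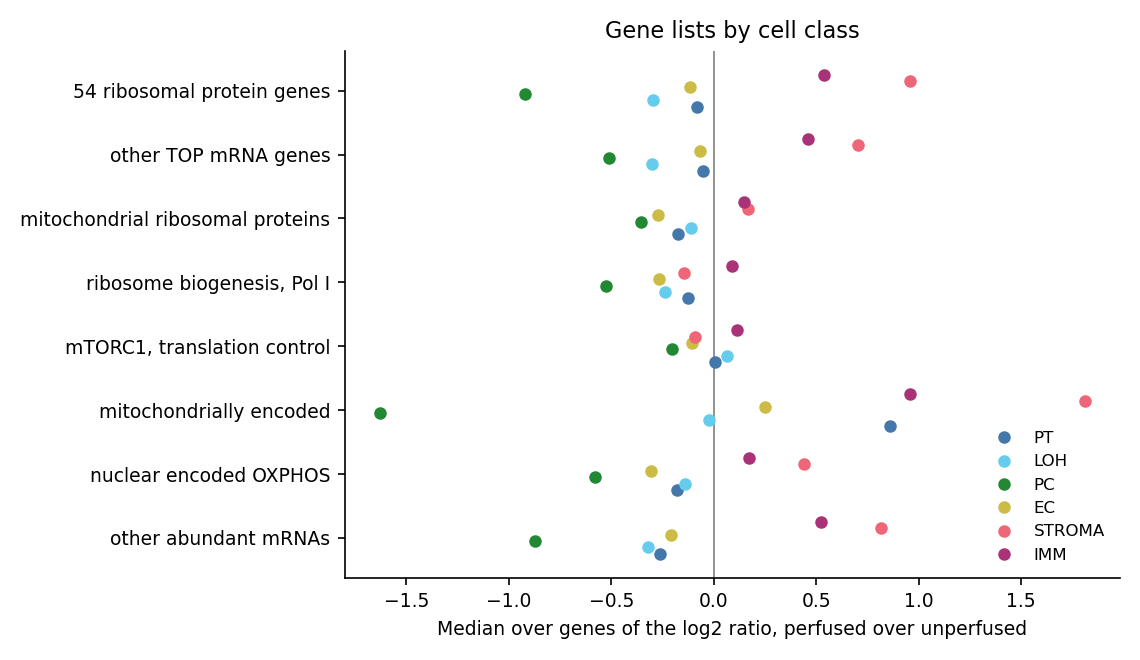
Median over genes of the log2 ratio of the perfused over the unperfused library (x axis) for the ribosomal protein genes and 7 other lists (y axis) in 6 classes (colours). In STROMA the ribosomal protein genes (0.96), the other oligopyrimidine mRNAs (0.70) and the other abundant mRNAs (0.82) lie apart from ribosome biogenesis (-0.14).

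Among 10420 other genes with at least 500 UMIs, those most like the sum of the ribosomal protein genes over the 32 sums of class and library were RPLP1 (Pearson r 0.98), RPS7 (0.98), KXD1 (0.97), TPT1 (0.97), EEF1A1 (0.96), an unnamed gene, ENSSSCG00000003042 (0.96), RACK1, a protein of the small subunit (0.96), and RPLP0 (0.95). RPS7 is 1 of the rows without a symbol. In the unperfused library KXD1 stood at 43.4 CPM in PT and 327 in IMM, and RACK1 at 22.2 and 185.

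Over all kept nuclei of each library, the share of ribosomal protein genes was highest where a nucleus had few UMIs. Nuclei under 1000 UMIs had 1.48% before and 2.2% after perfusion, those between 4000 and 8000 had 0.273% and 0.378%, and those above 8000 had 0.246% and 0.37%. Within PT, nuclei between 1000 and 2000 UMIs had 0.496% and 0.6%, and nuclei above 8000 had 0.207% and 0.206%. The share did not fall with depth throughout in STROMA and IMM. Perfused STROMA nuclei had 0.874% between 2000 and 4000 UMIs and 1.44% above 8000 (26 nuclei). Unperfused IMM nuclei had 1.30% between 2000 and 4000 UMIs and 1.80% between 4000 and 8000. In STROMA the perfused share was higher in each of the 4 depth bins that both libraries filled, from 0.807% and 1.29% between 1000 and 2000 UMIs to 0.502% and 0.988% between 4000 and 8000. The direction in STROMA was thus the same within these bins of depth, and the opposite within the 4 bins of the mitochondrial share, which leave out the nuclei above 1%.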

How the data were processed

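Nuclei of 1 unperfused and 1 perfused pig kidney cortex were sequenced with 10x Genomics chemistry. The deposited values are whole-number UMI counts per gene and barcode, made by the authors with Cell Ranger 5.0.1 against a pig genome of Ensembl release 103, with intronic reads included. The study removed free RNA with SoupX, whereas the deposited counts were used here without that step.

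Barcodes needed 500 to 6000 genes and a mitochondrial share of no more than 7%. Scrublet (scanpy 1.11.5) called 641 unperfused and 489 perfused barcodes doublets, which were left out. Seurat 5.3.0 in R 4.3.3 integrated both libraries on 2000 variable genes without the ribosomal protein genes, with 30 anchor dimensions, 15 principal components and a resolution of 0.5. Names needed at least 3 markers, and 117 of 120 markers were in the files. UMIs were summed per class. Ratios carry exact 95% conditional binomial intervals and shares exact binomial ones (scipy 1.17.1), which do not cover differences between animals. For ratios, 0 UMIs were replaced by 3. With 1 library per condition no test was run, and condition, animal and library cannot be told apart. The script was tested on simulated data.

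Named were the 12 genes with the most UMIs, the 5 highest and 5 lowest log2 ratios in the whole library, STROMA and EC among genes with at least 100 UMIs in 1 library, the 5 with the largest range over classes among those with at least 300 UMIs, all paralogue pairs, the top 3 genes of each list and the 8 most like genes. Some genes that this rule selects are not reported here. The genes and lists were chosen with earlier results of these data known. Size factors of edgeR 4.0.16 and DESeq2 1.42.0, other filters, other clusterings and other totals were tried as alternatives.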

Additional observations from a re-analysis of the deposited data

Results flagged for a closer look

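The log2 ratio of the summed ribosomal protein genes pointed in different directions in different classes, with counting intervals that left out 0. It was above 0 in STROMA (0.95), IMM (0.55) and the cycling class (1.23). It was below 0 in PT (-0.071), injured PT (-0.50), LOH (-0.26), DCT (-0.35), CNT (-0.12), PC (-0.97), IC-A (-0.63), IC-B (-0.70), PODO (-0.19), EC (-0.075), cluster 14 (-0.27) and cluster 17 (-0.19). The difference between the classes was not tested, since each condition is 1 library. Barcodes with fewer than 500 genes, which entered no comparison, had 1.86% (unperfused) and 2.2% (perfused) of their UMIs in ribosomal protein genes, against 0.324% and 0.494% in the kept nuclei.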

How the results depend on the processing

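No paired analysis was possible because each condition is 1 library. Depth limits the classes with few nuclei, such as the cycling class, and nothing here measures the spread between animals. With doublets kept, the library log2 ratio of the summed genes was 0.58 (0.312% and 0.467%), STROMA 0.87 and IMM 0.63. Without a mitochondrial limit, the library was at 0.63 (perfused 0.504%), STROMA at 1.02 and IMM at 0.71, with 38 genes at least 1.5-fold higher in IMM. At resolution 0.3, EC was at 0.082 and STROMA at 0.39 with 16 genes higher, and at resolution 1.0 PT was at -0.11 and EC at 0.10. The STROMA value at resolution 0.3 matched that of the smaller STROMA cluster of the main clustering (0.39). With the ribosomal protein genes among the variable genes PT was at -0.11, and without integration PT was at -0.13, EC at -0.15 and STROMA at 1.01. No cluster was named IMM at resolution 0.3 or without integration. All deposited barcodes gave 0.64 for the library (unperfused 0.314%). TMM factors gave 0.71 for the library, 0.018 for PT, -0.12 for LOH, 0.054 for EC, 1.07 for STROMA and 0.76 for IMM (41 genes higher). DESeq2 size factors gave 0.70, 0.035, -0.12, 0.075, 1.07 and 0.76 (41 genes higher) in the same order. Both kinds of factors raise the log2 ratio of every gene in a class alike, by 0.21 in IMM. For no alternative were the shares of all genes past 1.5-fold counted beside those of the ribosomal protein genes. Without genes lacking a symbol in the total, the library was at 0.57 (0.393% and 0.584%). The mean over nuclei gave 0.84 for the library with 46 genes higher, 0.070 for PT and 0.82 for STROMA. Nuclei with at least 1500 UMIs gave 0.57 for the library and 0.62 for IMM. Subtracting free RNA gave -0.14 for EC, 0.87 for STROMA and 0.50 for IMM. The free RNA was scaled by LRP2, CUBN, SLC12A1 and UMOD. Its composition was that of all kept nuclei, with 0.324% and 0.494% of ribosomal protein genes. Barcodes with fewer than 500 genes had 1.86% and 2.2%, so free RNA richer in these genes than the kept nuclei would be removed only in part. Leaving out nuclei with a UMI of another lineage gave -0.11 for PT, -0.35 for LOH, -0.18 for EC, 0.63 for STROMA with 28 genes higher and 0.45 for IMM. This left 88 unperfused and 126 perfused STROMA nuclei, and 67 and 170 IMM nuclei. Without genes with the suffix L, L1, X or Y the shares were 0.317% and 0.484%, and without RPS20 they were 0.312% and 0.469% (0.59). The following were chosen after seeing the data. The parts of IMM at resolution 1.0 were at 0.45, 0.47 and -0.34. The library was at 0.052 with the unperfused makeup and at 0.035 without IMM. Within bins of the mitochondrial share the medians were -0.16 for the library, -0.32 for PT, -0.34 for LOH, -0.20 for EC, -0.32 for STROMA and -0.28 for IMM. These medians weigh each bin equally. In the bin above 1% the library was at 0.61 and IMM, with 557 of its 884 perfused nuclei there, at 0.19. The cause of these shifts was not tested. The 499 values under alternatives include shares and counts of genes, which cannot change sign. The opposite sign was found in 18 values, 11 of them log2 ratios of sums and 7 medians over genes. The medians were those of PT and EC. The sums were those of PT, EC, the library, STROMA and IMM. For the library (-0.16), STROMA (-0.32) and IMM (-0.28) this was within bins of the mitochondrial share. For IMM it was also the third part at resolution 1.0 (-0.34). The main results were the log2 ratios of sums, the library shares and the counts of higher genes in the library, STROMA and IMM. Of their alternatives, 84 stayed within the counting interval, or within 1.5-fold for counts of genes. Another 58 moved beyond it and 11 reversed.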
